A study of Mus musculus with 12 samples.

Results

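Leukocytes arrest on other cells through adhesion ligands of the immunoglobulin superfamily and through CD44, and the transcripts of 5 genes of this kind were followed in CT26 cells, a mouse colon carcinoma line. The genes were VCAM1, ICAM1, ICAM2, ALCAM and CD44, which were found by symbol, and all 5 of them were among the 23636 symbols of the expression table. The table gives mouse genes in upper case, and that spelling is kept here. Of these genes, 3 (VCAM1, ICAM1 and CD44) had a mean of at least 0.2 TPM over all libraries and entered the test, whereas ICAM2 and ALCAM stayed below it.

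CT26 cells were cultured for 8 hours without treatment, with recombinant CX3CL1 (2 µg/ml), IFN-γ (100 ng/ml) or both of them at these doses. The dose of CX3CL1 and the time come from the sequencing methods of the study, and the treatments from the library labels. The dose of IFN-γ comes from the caption of the study's expression heatmap, which also gives 8 hours. The text of the study also speaks of TNF-α together with IFN-γ before CX3CL1, whereas the labels and that caption name IFN-γ without TNF-α. As these sources differ, whether TNF-α was present in the groups with IFN-γ is not settled by them. RNA sequencing was performed on 3 replicates of each of the 4 groups, which gave 12 libraries. All groups are the same cell line in culture, with no other cell type, animal or genetic change named for any of them. The labels call the replicates biological without describing their cultures, and p-values measure the spread between these libraries. The values are TPM, which are transcript levels divided by transcript length and scaled to a total of 1000000 per library, and so the levels of different genes may be compared while the read depth is unknown.

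VCAM1 and the ICAM proteins are membrane proteins built of immunoglobulin domains, and they serve as ligands of leukocyte integrins. VCAM1 is bound by integrins that contain the ITGA4 subunit, and the ICAM proteins by integrins that contain ITGB2, of which the ITGAL and ITGB2 pair is the best known. ALCAM is the ligand of CD6 on T cells and also binds itself, while CD44 is the main cell surface receptor of the matrix sugar hyaluronan and a ligand for selectins. NF-kB and interferon signaling are textbook inducers of VCAM1 and ICAM1 in endothelium, and tumor cells can carry these proteins as well.

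The libraries were first examined for cell identity and for their response. Between 10613 and 10824 symbols per library reached 1 TPM, and CX3CL1 replicate 2 was the library least like its group, as its genes differed by a median of 0.208 and 0.202 (absolute log2 difference) from replicates 1 and 3, which differed from each other by 0.113. Endothelial markers were below 1 TPM in every library for 7 of 7 genes, with a summed level of 0.0404 to 0.489 TPM. CD34, SELE and SELP, which are also textbook markers of vessels, were not among these 7. Their means without treatment were 670, 29.4 and 14.8 TPM. PTPRC, the pan-leukocyte marker, had a group mean of at most 0.0147 TPM. The 8 leukocyte markers summed to 8.99-17.6 TPM without treatment, 8.26-21.9 with CX3CL1, 9.54-20.2 with IFN-γ and 10.2-27.5 with both, most of it from the lysosomal gene CD68, and their part in the results below was not tested. Of the 7 epithelial markers, EPCAM was listed at 0 in every library, and CDH1, KRT8, KRT19, CDX2 and VIL1 were below 1 TPM, so that KRT18 (45.3 TPM without treatment) was the epithelial marker detected above that level, and the mesenchymal gene VIM reached 4174 TPM. KRT18 was called lower with IFN-γ and with both agents (21.5 TPM), and VIM was called lower with both (2360 TPM). Among 8 NF-kB and interferon response genes, 4 were called higher with CX3CL1, among them CXCL1, NFKBIA and GBP2, and 8 with IFN-γ and with both agents. Of all genes tested, 1.78% were called higher with CX3CL1, 5.91% with IFN-γ and 8.21% with both agents against no treatment. The 8 genes were chosen with earlier results of these data known.

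For the comparisons, limma was fitted to log2(TPM + 1) of all 12 libraries at once. Genes whose p-value stayed under 0.05 after Benjamini-Hochberg adjustment over the 11878 genes tested are referred to as called. Log2 fold changes are on this scale, on which the added 1 shrinks the change of weakly expressed genes such as ICAM1. Exact permutation (two-sided) with groups of 3 has 0.1 as its smallest p-value, so none is printed. Of all genes tested, an unadjusted p under 0.05 was found for 8.07% with CX3CL1, 22% with IFN-γ and 24.6% with both agents against no treatment. The share was 4.35% with both agents against IFN-γ, 17.7% with both against CX3CL1 and 21.2% with IFN-γ against CX3CL1, and counts of unadjusted p-values below are to be read against these.

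VCAM1 was abundant in untreated CT26 cells, and its level was higher in all treated groups. VCAM1 lies at chr3:116109949-116129688 on the minus strand (GENCODE vM21, GRCm38), has 3 annotated protein-coding transcripts, and is overlapped by the antisense gene Gm43109. Without treatment, VCAM1 was 126.4, 108.9 and 104.3 TPM in replicates 1, 2 and 3. With CX3CL1 it was 310.8, 252.7 and 248.7 TPM. With IFN-γ it was 160.5, 175.7 and 284.7 TPM, and with both agents 333.1, 304.0 and 483.0 TPM. Every treated library was above every untreated library, and replicate 3 was the highest library of both groups that received IFN-γ. The group means were 113 ± 11.7, 271 ± 34.7, 207 ± 67.8 and 373 ± 96.0 TPM (SD, n = 3), which placed VCAM1 at rank 1532 of the 23636 symbols without treatment and at rank 431 with both agents. The groups containing both agents and CX3CL1 alone overlapped, as did CX3CL1 alone and IFN-γ alone.

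CD44 was the most abundant member in every group but the one with both agents, and its order of groups differed from that of VCAM1. CD44 lies at chr2:102811141-102901665 on the minus strand and has 8 annotated protein-coding transcripts, whose variants a gene-level TPM cannot separate. Without treatment, CD44 was 344.9, 278.0 and 310.3 TPM. With CX3CL1 it was 447.1, 444.2 and 377.3 TPM. With IFN-γ it was 273.7, 284.9 and 285.1 TPM, and with both agents 387.1, 317.8 and 331.2 TPM. The CX3CL1 libraries were above all untreated and all IFN-γ libraries, whereas the IFN-γ libraries overlapped the untreated ones. The means were 311 ± 33.5, 423 ± 39.5, 281 ± 6.50 and 345 ± 36.8 TPM (SD, n = 3).

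**Figure D1:**
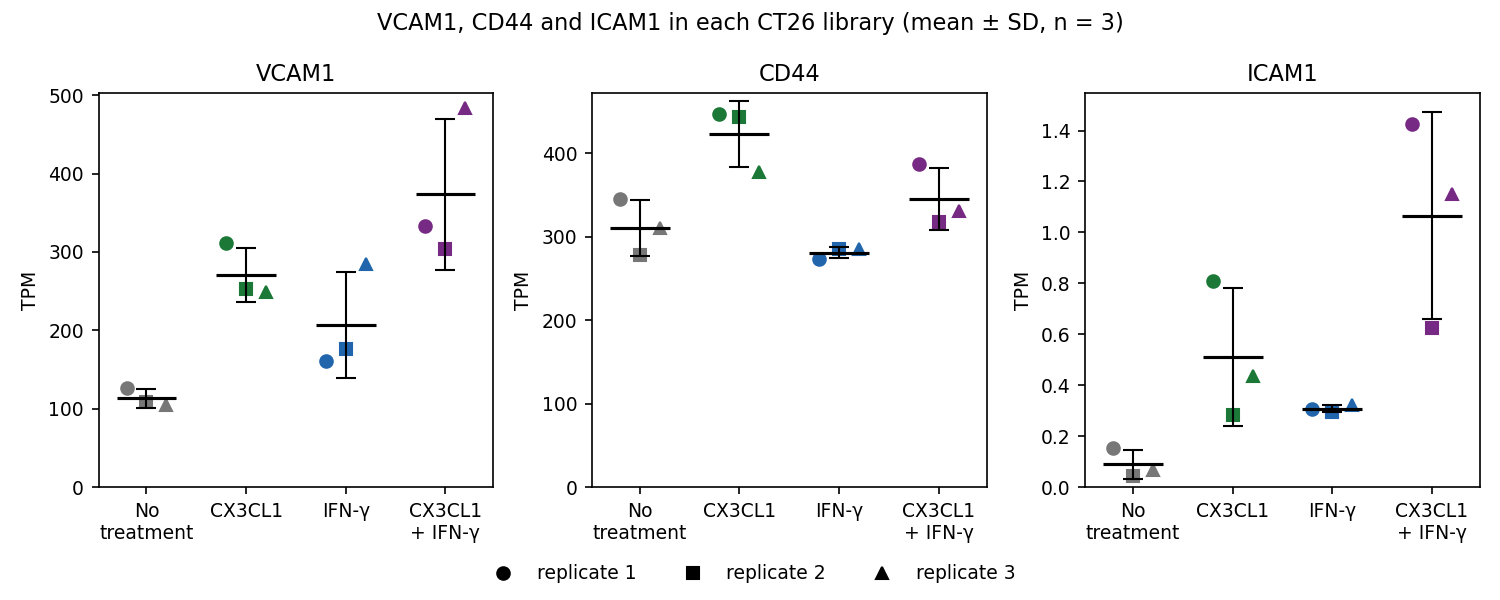
TPM of VCAM1, CD44 and ICAM1 on separate axes (y) in each of the 12 libraries by group (x), with a symbol per replicate, a line at the group mean and bars for the SD (n = 3). VCAM1 and ICAM1 had every treated library above every untreated one, and CD44 had its highest mean with CX3CL1 (423 TPM).

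ICAM1 had a low level in all libraries, and only with both agents did its mean reach 1 TPM. ICAM1 lies at chr9:21015985-21028817 on the plus strand, followed on the same strand by ICAM4 and ICAM5, and the antisense gene Gm47079 overlaps it. The 250 bases before its RefSeq start (chr9:21015690-21015939, plus strand, GRCm38.p6) are shown because this gene responded to both agents together, and the capitals mark the letters TTCNNNGAA, the pattern of an interferon-γ activated (GAS) site, at positions -42 to -34 from the start. The same stretch of CD44 (chr2:102901666-102901915, minus strand) is shown beside it as the member with another order of groups, and it has no capitals because no searched motif was found in it.
ICAM1: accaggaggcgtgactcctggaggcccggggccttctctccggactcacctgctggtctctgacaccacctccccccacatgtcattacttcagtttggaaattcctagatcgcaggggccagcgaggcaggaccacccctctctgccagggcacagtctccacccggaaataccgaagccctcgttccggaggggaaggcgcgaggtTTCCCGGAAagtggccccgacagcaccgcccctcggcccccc
CD44: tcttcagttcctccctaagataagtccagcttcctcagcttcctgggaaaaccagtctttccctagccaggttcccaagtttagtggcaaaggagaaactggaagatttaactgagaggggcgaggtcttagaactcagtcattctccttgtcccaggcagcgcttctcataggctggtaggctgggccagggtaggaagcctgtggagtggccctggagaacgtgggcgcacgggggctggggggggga
Searches covered both strands for TTCNNNGAA, the IRF type pattern GAAANNGAA, the AP-1 pattern TGAGTCA and the NF-kB consensus, and they may overlap. Only exact matches were marked. Sites that depart from these patterns, those of NF-kB included, would be missed, so letters without capitals do not show that a site is absent. Of 32817 promoter windows of this length, 7.01% held the GAS pattern, 7.12% the IRF pattern, 4.46% the AP-1 pattern and 3.90% the NF-kB consensus, so the match in ICAM1 is a description of these letters alone. RefSeq promoter entries were matched for 3 of the 5 members, and ALCAM, the third, held none of the patterns.

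Without treatment, ICAM1 was 0.155, 0.0452 and 0.0673 TPM. With CX3CL1 it was 0.810, 0.284 and 0.438 TPM. With IFN-γ it was 0.306, 0.295 and 0.324 TPM, and with both agents 1.42, 0.623 and 1.15 TPM. All treated libraries were again above all untreated ones, and the 3 libraries with both agents were above the 3 with IFN-γ alone, whereas they overlapped those with CX3CL1 alone. The means were 0.0892 ± 0.0582, 0.510 ± 0.270, 0.308 ± 0.0146 and 1.07 ± 0.407 TPM (SD, n = 3), and the replicates with IFN-γ alone lay closest together.

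ICAM2, a ligand of the ITGAL integrin found mainly on endothelium and platelets, was listed at 0 in 8 of the 12 libraries. Its 4 other values were 0.0511 TPM without treatment, 0.0349 with CX3CL1, 0.157 with IFN-γ and 0.101 with both agents, each from a single replicate. ICAM2 lies at chr11:106377656-106388075 on the minus strand. ALCAM, at chr16:52248996-52454074 on the minus strand, was listed at 0 in all 12 libraries. A value of 0 in this table may be a failed estimate, since RPL26, a ribosomal protein gene that every cell uses (picked after its values were seen), was also listed at 0 throughout. No comparison could be made for either gene.

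To ask what CX3CL1 alone changed, its libraries were compared with the untreated ones. VCAM1 was called higher, with a log2 fold change of 1.25 (SE 0.21, 95% confidence interval 0.79 to 1.71, limma adjusted p = 0.00599) and a ratio of mean TPM of 2.39. This was 1 of the 3 members tested, while 1.78% of all genes tested were called higher and 0.168% lower. CD44 had a log2 fold change of 0.44 (interval 0.20 to 0.68) and ICAM1 of 0.46 (interval 0.13 to 0.79). Neither was called, with limma adjusted p-values of 0.0708 and 0.261, although their libraries, like those of 11.2% of all genes, did not overlap with the untreated ones. Without the deviating CX3CL1 replicate 2, VCAM1 was still called (log2 fold change 1.29, adjusted p = 0.0178), and CD44 (0.41, adjusted p = 0.135) and ICAM1 (0.57, adjusted p = 0.133) were not. CD44 was called in 4 of 20 alternatives, which were the fits without no treatment replicate 1 (adjusted p = 0.0467) and without replicate 1 of both agents (adjusted p = 0.0474), and those with all libraries under median-ratio scaling (adjusted p = 0.0220) or with the replicate number as a block (adjusted p = 0.0296). ICAM1 was called with a pseudocount of 0.1 (log2 fold change 1.64, adjusted p = 0.0406).

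With IFN-γ alone, VCAM1 was the only member called. Its log2 fold change against no treatment was 0.82 (SE 0.21, interval 0.36 to 1.28, limma adjusted p = 0.0311), for a ratio of mean TPM of 1.83. Again this was 1 of 3 members, beside 5.91% of all genes called higher and 1.94% lower, and libraries that did not overlap were found for 34.2% of all genes. The call of VCAM1 was lost without IFN-γ replicate 3 (log2 fold change 0.57, adjusted p = 0.125), without no treatment replicate 2 (0.80, adjusted p = 0.0931) and without no treatment replicate 3 (0.77, adjusted p = 0.1275), so it rested on single libraries. ICAM1 had a log2 fold change of 0.27 (interval -0.07 to 0.60, adjusted p = 0.340) and CD44 of -0.14 (interval -0.38 to 0.10, adjusted p = 0.504). The IFN-γ libraries of ICAM1 did not overlap with the untreated ones, and its ratio of mean TPM was 3.45, from an untreated mean of 0.0892 TPM. Over 19 alternatives the log2 fold change of ICAM1 was at most 1.15, and none of them called it.

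VCAM1 and ICAM1 differed most from untreated cells with both agents, whereas CD44 differed most with CX3CL1 alone. VCAM1 was called higher with a log2 fold change of 1.69 (SE 0.21, interval 1.23 to 2.15, limma adjusted p = 0.00013) and ICAM1 with 0.90 (SE 0.15, interval 0.57 to 1.24, adjusted p = 0.00139). The ratios of mean TPM were 3.30 for VCAM1 and 11.95 for ICAM1, the latter from a mean below 0.1 TPM in untreated cells. Without no treatment replicate 1, the highest untreated library, the ratio of ICAM1 was 18.95, and without any other library of these groups it was 9.58 to 14.4. Thus 2 of the 3 members were called higher, compared with 8.21% of all genes called higher and 3.72% lower, and 31.2% of all genes had libraries that did not overlap. CD44 was 1.11 times its untreated mean and was not called (log2 fold change 0.15, interval -0.09 to 0.39, adjusted p = 0.455).

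**Figure D2:**
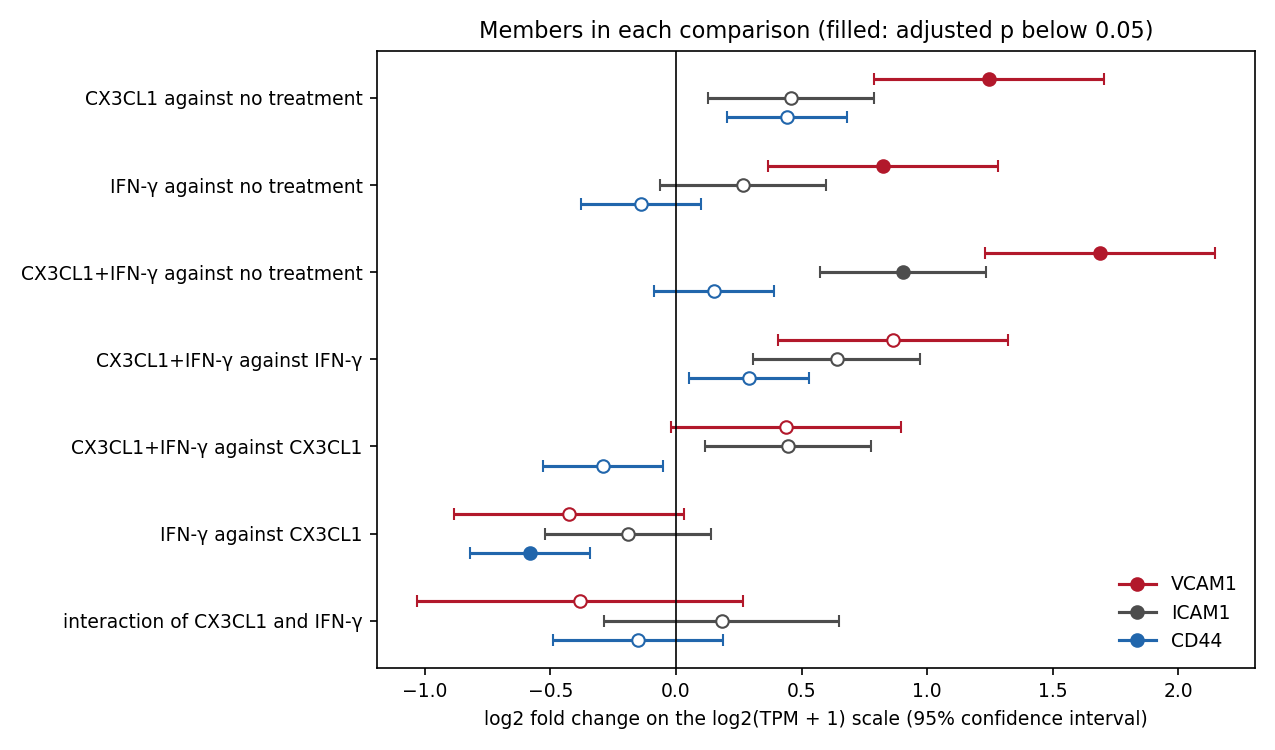
Log2 fold change on the log2(TPM + 1) scale (x) of VCAM1, ICAM1 and CD44 in the 6 comparisons of groups and in the interaction (y), with 95% confidence intervals from limma as bars and called results as filled points. VCAM1 was called in all 3 comparisons with no treatment, ICAM1 with both agents against no treatment, and CD44, as a lower value, with IFN-γ against CX3CL1.

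The effect of CX3CL1 in the presence of IFN-γ was then considered. Compared with IFN-γ alone, the libraries with both agents did not overlap for VCAM1 (log2 fold change 0.87, interval 0.41 to 1.32), ICAM1 (0.64, interval 0.31 to 0.97) or CD44 (0.29, interval 0.05 to 0.53), while 16.3% of all genes showed no overlap. None of the 3 was called by limma over all genes, with adjusted p-values of 0.187, 0.1795 and 0.883, and the unadjusted p was under 0.05 for 3 of 3, beside 4.35% of all genes. Calls were rare in this comparison, with 0.345% of genes called higher and 0.0168% lower. With the replicate number as a block, ICAM1 was called (adjusted p = 0.0303), and then 0.749% of all genes were called higher and 0.0505% lower. VCAM1 was called without IFN-γ replicate 3 (log2 fold change 1.12, adjusted p = 0.0342) and ICAM1 without replicate 2 of both agents (0.80, adjusted p = 0.0276).

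The effect of IFN-γ in the presence of CX3CL1 was compared in the same way. VCAM1 differed by 0.44 on the log2 scale (interval -0.02 to 0.90), ICAM1 by 0.45 (interval 0.12 to 0.78) and CD44 by -0.29 (interval -0.53 to -0.05). None was called by limma, with adjusted p-values of 0.307, 0.131 and 0.174, whereas the unadjusted p was under 0.05 for 2 of 3, beside 17.7% of all genes. Of all genes, 3.76% were called higher and 0.935% lower. The block again moved ICAM1 across the threshold (adjusted p = 0.0309), with 8.71% of genes called higher and 2.81% lower, and so did leaving out replicate 2 of both agents (log2 fold change 0.61, adjusted p = 0.0301).

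CD44 was the only member called between IFN-γ and CX3CL1. It was called lower with IFN-γ than with CX3CL1 (log2 fold change -0.58, SE 0.11, interval -0.82 to -0.34, limma adjusted p = 0.0106), for a ratio of mean TPM of 0.665, and without CX3CL1 replicate 2 the call was kept (-0.55, adjusted p = 0.0339). In this comparison 1.06% of all genes were called lower and 3.52% higher, and 26.0% had libraries that did not overlap. VCAM1 (log2 fold change -0.43, interval -0.88 to 0.03) and ICAM1 (-0.19, interval -0.52 to 0.14) were not called, with adjusted p-values of 0.270 and 0.496.

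The interaction, which is the CX3CL1 effect with IFN-γ minus the CX3CL1 effect without it, was called for 0 of the 3 members (limma, all with an adjusted p of 1.0). It was -0.38 for VCAM1 (interval -1.03 to 0.27), -0.15 for CD44 (interval -0.49 to 0.19) and 0.18 for ICAM1 (interval -0.29 to 0.65), with an unadjusted p under 0.05 for 0 of 3. Across all genes 0% were called, and 273 (2.3%) had an unadjusted p under 0.05. The intervals of all 3 members include differences as large as several of the effects above, and so they do not show that the effects were alike.

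Ordered by mean level, VCAM1 and ICAM1 followed the same sequence, with both agents highest, then CX3CL1, IFN-γ and no treatment. CD44 ran from CX3CL1 to both agents, no treatment and IFN-γ. Of the neighbours in these sequences, IFN-γ and no treatment differed for VCAM1, and no other neighbouring pair of groups was called for any of the 3 genes. The balance of the abundant members was also examined within each library, where the ratio of VCAM1 to CD44 was 0.367, 0.392 and 0.336 without treatment. It was 0.695, 0.569 and 0.659 with CX3CL1 and 0.586, 0.617 and 0.999 with IFN-γ, and with both agents it was 0.861, 0.956 and 1.46. The mean ratios were 0.365 ± 0.0279, 0.641 ± 0.0650, 0.734 ± 0.230 and 1.09 ± 0.321 (SD, n = 3), and VCAM1 exceeded CD44 only in replicate 3 of both agents.

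Genes with a profile most like each member were sought by the root mean square difference of log2(TPM + 1), each gene centred on its own mean, over the 12 libraries and 11877 other genes. The genes closest to VCAM1 were BCL2L11 (0.191), a BH3-only inducer of apoptosis, PLSCR1 (0.215), an interferon-inducible phospholipid scramblase, and SLC11A1 (0.219), a metal ion transporter of phagocytes. The median gene differed from VCAM1 by 0.693, and VCAM1 spread around its own mean by 0.671. For ICAM1 the closest were the transcription factor FOXO3 (0.145) and ARNT2 (0.146), a partner of bHLH-PAS factors, against a median of 0.402. For CD44 they were the autophagy protease ATG4A (0.105), EVI2A (0.108) and the dynein adaptor BICD2 (0.111), against a median of 0.302. The small values for CD44 go with its small spread of 0.241 around its own mean. Because the added 1 shrinks changes at low levels, a close profile on this scale need not be a like ratio of TPM. From no treatment to both agents, SLC11A1 went from 0.0785 to 2.21 TPM and VCAM1 from 113 to 373 TPM. In the same groups FOXO3 went from 9.64 to 18.3 TPM and ICAM1 from 0.0892 to 1.07 TPM.

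**Figure D3:**
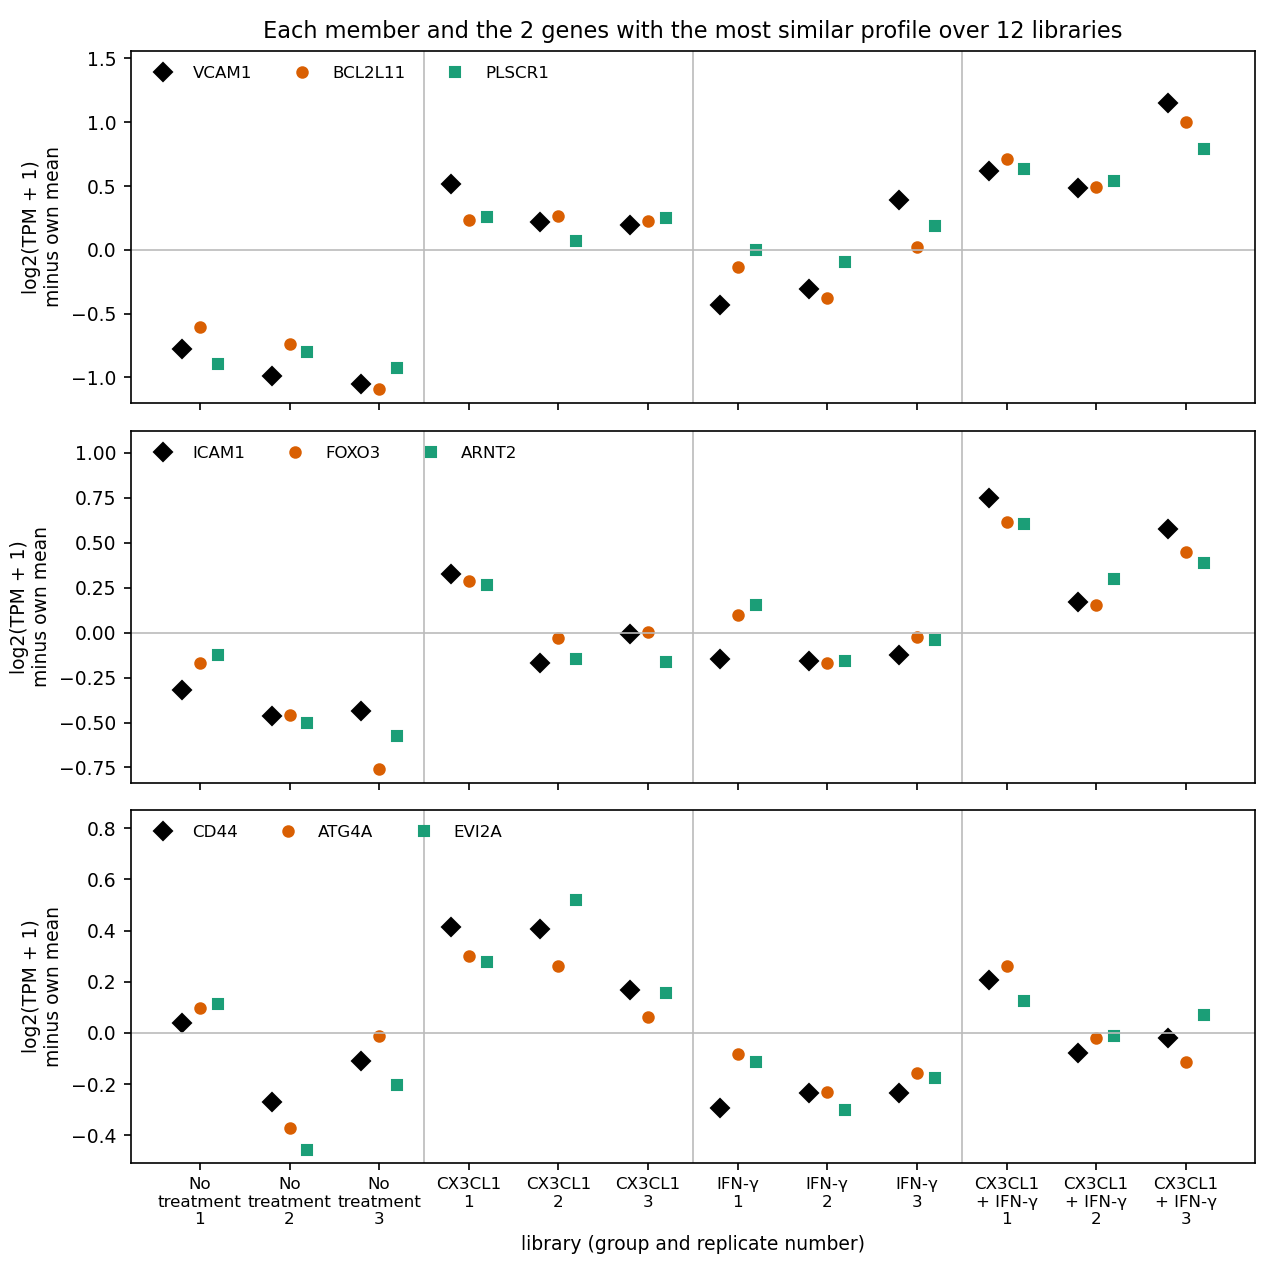
Level as log2(TPM + 1) minus the gene's own mean (y) in the 12 libraries (x) for VCAM1, ICAM1 and CD44 (black diamonds) and the 2 genes with the smallest root mean square difference from each (coloured symbols). The root mean square difference was 0.191 between BCL2L11 and VCAM1, 0.145 between FOXO3 and ICAM1 and 0.105 between ATG4A and CD44.

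Receptors for these ligands were also measured in the tumor cells. Of 11 genes for integrin subunits and other receptors, 4 passed the filter on low values. The leukocyte integrin chains ITGAL, ITGAM, ITGAX and ITGA4, and CD6, the receptor of ALCAM, had group means of at most 0.0706 TPM, while ITGAD and ITGA9 were listed at 0. SPN, which was tested, had group means of 12.2 to 12.7 TPM. ITGB2, the shared chain of the ICAM-binding integrins, was called higher with both agents against no treatment (1.98 ± 0.281 to 3.41 ± 0.569 TPM, log2 fold change 0.56, limma adjusted p = 0.0143). The ITGB2 call was lost without no treatment replicate 1 or 2 and without replicate 1 or 3 of both agents (adjusted p up to 0.0757). No other comparison called a gene of this list, and the unadjusted p was under 0.05 for 1 or 2 of the 4 in each comparison of groups. ITGB1, a widely used integrin chain, had 456 ± 36.5 TPM without treatment and 350 ± 14.3 with IFN-γ, and ITGB7, a partner of ITGA4 in lymphocytes, had 114 ± 36.2 and 262 ± 106 TPM. With the replicate block, ITGB7 was called higher (log2 fold change 1.16, adjusted p = 5.99e-06) and ITGB1 lower (-0.38, adjusted p = 0.0498) with IFN-γ against no treatment, where 11.4% of all genes were called higher and 4.85% lower under the block. The block also called ITGB7 higher with both agents against CX3CL1 (0.97, adjusted p = 7.1e-05) and with IFN-γ against CX3CL1 (1.18, adjusted p = 2.87e-05), and ITGB1 lower in the latter (-0.46, adjusted p = 0.0288). The median log2 fold change of the 4 tested genes with both agents against no treatment was 0.30, compared with 0.02 for all genes.

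Among 22 other adhesion molecules, 21 were in the table and 9 were tested. CD47, the ligand of SIRPA and a partner of integrins, was called higher with CX3CL1 (103 ± 18.4 to 191 ± 24.4 TPM, log2 fold change 0.89, limma adjusted p = 0.00291). It was also called higher with IFN-γ (207 ± 17.3 TPM, 1.01, adjusted p = 0.000331) and with both agents (249 ± 16.4 TPM, 1.28, adjusted p = 3.18e-05). PVR, the poliovirus receptor and a ligand of TIGIT and CD226, was called higher with both agents (76.4 ± 16.8 to 143 ± 49.2 TPM, 0.86, adjusted p = 0.0291), a call that was lost without no treatment replicate 2 or 3 and without replicate 1 or 3 of both agents (adjusted p up to 0.129). The other members of the ICAM family, ICAM4 and ICAM5, were at 0.221 ± 0.0853 and 0.190 ± 0.0781 TPM without treatment and were not called in any comparison. No gene of this list was called between treated groups without a block, with unadjusted p-values under 0.05 for 0 of 9 with both agents against IFN-γ, 2 of 9 with both against CX3CL1 and 1 of 9 with IFN-γ against CX3CL1. With the block, NECTIN2, which like PVR is a ligand of CD226 and TIGIT, was called higher with both agents against CX3CL1 (0.69, adjusted p = 0.000352) and with IFN-γ against CX3CL1 (0.53, adjusted p = 0.00222), and NECTIN1 in the latter (0.30, adjusted p = 0.0313). Against no treatment, IFN-γ then had NECTIN2 (0.55, adjusted p = 0.00091) and PVR (0.46, adjusted p = 0.0195) called higher. The median log2 fold change of the 9 was 0.05 with CX3CL1, 0.24 with IFN-γ and 0.08 with both agents against no treatment.

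**Figure D4:**
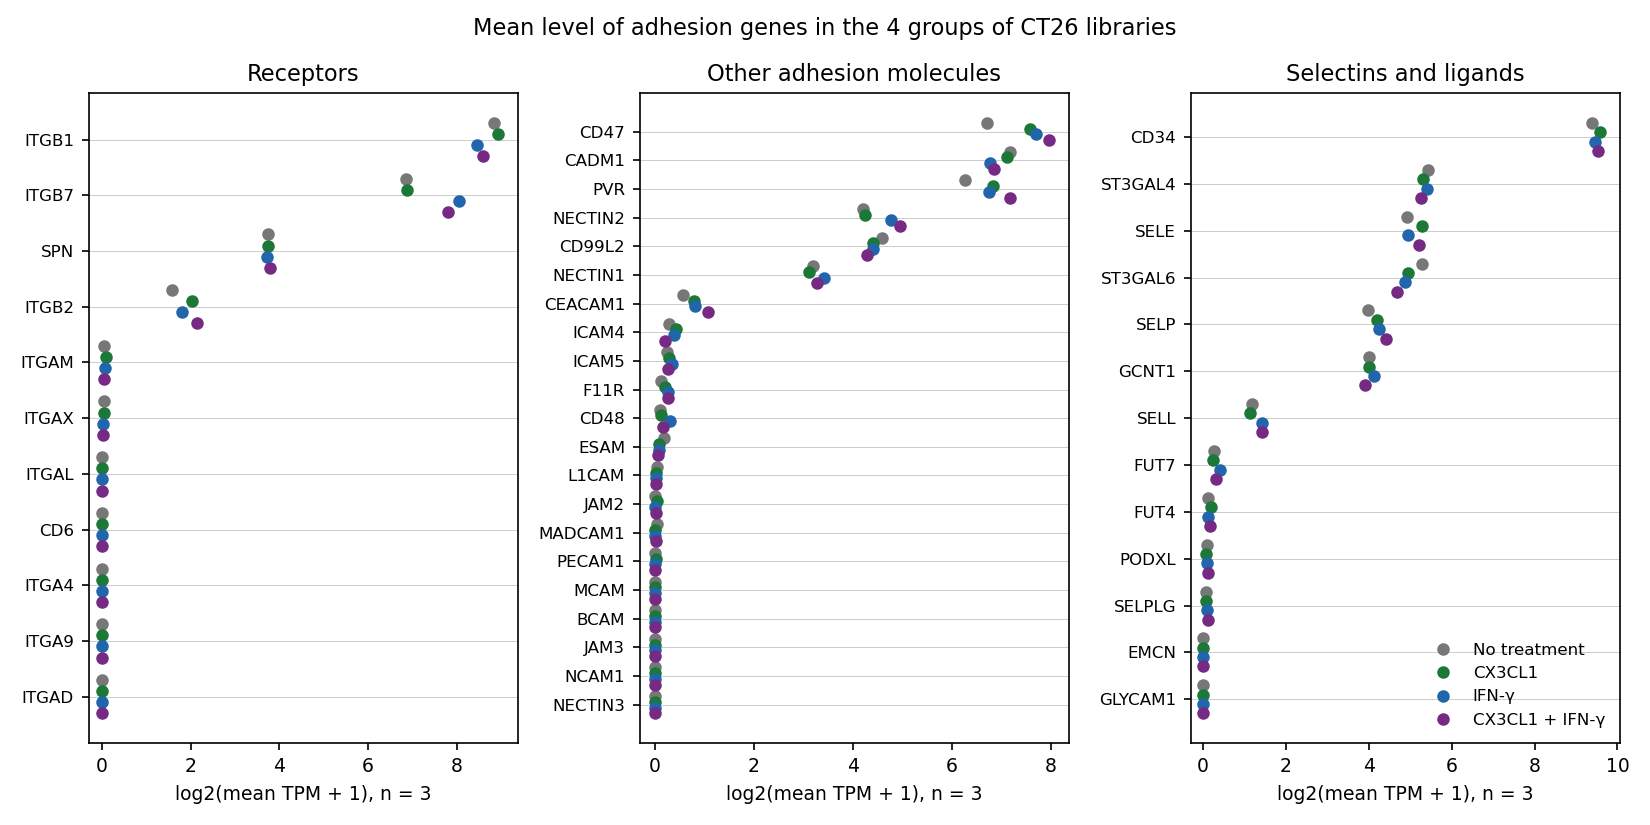
Mean level as log2(mean TPM + 1) (x, n = 3 libraries per group) of the genes for integrin receptors, other adhesion molecules, and selectins with their ligands (y), with 1 point per group. CD34 and ITGB1 were the most abundant of these genes, CD47 was higher in all treated groups, and the leukocyte integrin chains ITGAL, ITGAM, ITGAX and ITGA4 stayed at or near 0.

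Proteases that release these ligands from the cell surface included 2 called genes. Of 11 sheddase and secretase genes, 10 were tested. MMP9, a gelatinase that can cut ICAM1 and associates with CD44, was called higher with CX3CL1 (0.0808 ± 0.0261 to 1.33 ± 0.449 TPM, log2 fold change 1.09, limma adjusted p = 0.00746) and with both agents (1.12 ± 0.515 TPM, 0.94, adjusted p = 0.00527). ADAM8, a metalloprotease of the ADAM family, was called higher with IFN-γ (3.17 ± 0.810 to 7.50 ± 1.94 TPM, 1.02, adjusted p = 0.00859) and with both agents (10.1 ± 1.18 TPM, 1.43, adjusted p = 0.000443). ADAM8 was also called with both agents against CX3CL1 (0.82, adjusted p = 0.0413), a call that 11 of the 20 alternatives did not give (adjusted p up to 0.159), among them the fits without replicate 1 or 3 of no treatment or of CX3CL1 and without any replicate of both agents. ADAM17 and ADAM10, the main sheddases of VCAM1 and CD44, had 36.3 ± 2.16 and 55.2 ± 7.29 TPM without treatment and were not called in any comparison. With the block, MMP9 was called higher with IFN-γ as well (0.636 ± 0.340 TPM, log2 fold change 0.58, adjusted p = 0.0162) and lower with IFN-γ than with CX3CL1 (-0.51, adjusted p = 0.0334), where 10.3% of all genes were called higher and 3.19% lower under the block. NCSTN, a subunit of γ-secretase, was then called higher with IFN-γ against no treatment (0.28, adjusted p = 0.0166), with IFN-γ against CX3CL1 (0.26, adjusted p = 0.0277) and with both against CX3CL1 (0.26, adjusted p = 0.0319), and ADAM15 with IFN-γ against CX3CL1 (0.37, adjusted p = 0.0433). The median log2 fold change of the 10 was 0.01 with CX3CL1, 0.17 with IFN-γ and 0.24 with both agents against no treatment.

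Cytoskeletal linkers, which tie the tails of ICAM proteins, VCAM1 and CD44 to actin, were expressed in CT26 cells, with 16 of 17 tested. Of the ERM proteins, EZR (256 ± 19.8 TPM without treatment) and RDX (179 ± 5.86) were not called in any comparison. MSN, the third, was called higher with IFN-γ (8.28 ± 0.960 to 13.5 ± 2.22 TPM, log2 fold change 0.63, limma adjusted p = 0.0129), with both agents (16.0 ± 1.35 TPM, 0.87, adjusted p = 0.000855) and with both against CX3CL1 (0.62, adjusted p = 0.0227). The MSN call with IFN-γ was lost without no treatment replicate 2 or IFN-γ replicate 2 or 3 (adjusted p up to 0.0693), and that against CX3CL1 without CX3CL1 replicate 1 or replicate 1 or 3 of both agents (adjusted p up to 0.0978). The small GTPase RHOA was called lower with IFN-γ (421 ± 27.2 to 317 ± 9.66 TPM, -0.41, adjusted p = 0.0486), but only 9 of 20 alternatives kept that call, among them none that left out a library of no treatment, of IFN-γ or of both agents (adjusted p up to 0.159). In cells with both agents, the actin crosslinker ACTN1 (0.31, adjusted p = 0.0340) was called higher than without treatment and the scaffold SLC9A3R2 lower (-0.60, adjusted p = 0.0409), and these calls held in 12 and 11 of 20 alternatives. Both were lost without no treatment replicate 2 or 3, ACTN1 also without replicate 1 or 2 of both agents or IFN-γ replicate 2 or 3 (adjusted p up to 0.146), and SLC9A3R2 without replicate 2 or 3 of both agents, no treatment replicate 1, CX3CL1 replicate 3 or IFN-γ replicate 2 (up to 0.179). With the block, SLC9A3R2 was called lower with IFN-γ against no treatment (-0.45, adjusted p = 0.0311), and RHOA (-0.40, adjusted p = 0.0346) and ACTN1 (-0.22, adjusted p = 0.0459) lower with IFN-γ than with CX3CL1. The median log2 fold change of the 16 was -0.06 with both agents against no treatment.

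Ligands and enzymes around CD44 gave few calls. Of 16 genes for hyaluronan metabolism and CD44 ligands, 8 were tested, and the hyaluronan synthases HAS1, HAS2 and HAS3 had group means of at most 0.0908 TPM. After treatment with both agents, TNFAIP6, which crosslinks hyaluronan, was called higher than without treatment (0.0938 ± 0.0788 to 0.523 ± 0.150 TPM, log2 fold change 0.48, limma adjusted p = 0.0225). UGDH, which makes a precursor of hyaluronan, was called lower (518 ± 52.3 to 356 ± 56.3 TPM, -0.55, adjusted p = 0.0356), and the calls held in 14 of 19 and 13 of 20 alternatives. TNFAIP6 was lost without no treatment replicate 1 or 3 or replicate 2 or 3 of both agents (adjusted p up to 0.0916), and UGDH when any library of no treatment was left out, or IFN-γ replicate 3 or replicate 1 or 3 of both agents (adjusted p up to 0.131). SPP1, or osteopontin, a CD44 ligand, was the most abundant of the list with 2220 ± 133 TPM without treatment and 1744 ± 366 with IFN-γ (adjusted p = 0.303). No gene of the list was called in the other comparisons, where the unadjusted p was under 0.05 for 0 to 2 of 8, and the median log2 fold change of the 8 with both agents was -0.04. With the block, SPP1 was called lower with IFN-γ against no treatment (adjusted p = 0.0335), together with UGDH (adjusted p = 0.0414), while TNFAIP6 was called higher (adjusted p = 0.0464), and SPP1 was called lower with IFN-γ than with CX3CL1 (-0.44, adjusted p = 0.0201).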

How the data were processed

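RNA was sequenced from CT26 cells in 4 groups of 3 libraries, grouped by the library labels. The authors prepared strand-specific mRNA libraries (Kapa mRNA HyperPrep), aligned reads to mm10 with STAR 2.7.3a in the VIPER pipeline and tested counts with DESeq2 1.22.1, per the submitters' processing notes and the methods. The deposited values are TPM per gene symbol. How counts became TPM, the annotation and the strand setting are not given in the sources used here, and gene counts were not analysed here. The methods state a target of read pairs per library, but the depth each library reached and the counting error are unknown, and precision is the spread of 3 replicates. Reads of antisense genes may be included if strand was ignored. Among 23636 symbols, 6747 had 0 TPM throughout, 26 had become dates and 2 occurred more than once. The TPM of a gene also falls when abundant transcripts rise, since each library sums to 1000000.

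Values were tested in R 4.3.3 with limma 3.58.1 (lmFit, then eBayes with trend) as log2(TPM + 1), for the 11878 genes averaging 0.2 TPM or more, without a block, with Benjamini-Hochberg adjustment per comparison. The script was tested on simulated data. Python 3.11.15, pandas 2.3.3 and matplotlib 3.10.9 were used for tables and figures. The members, gene lists, markers and named genes were chosen with earlier results of these data known. Named were the members, up to 4 called genes of each list per comparison by size of change (or the 2 most abundant where none was called), and the 3 genes with the profile closest to each called member. Further names, such as list members below the filter, were given with their level, and genes called under the block alone were chosen after their values were seen. Positions are from GENCODE vM21 and promoters from RefSeq (GRCm38.p6). Protein sequences were not used here, and some genes that this rule names are not reported here. No pair of replicates held identical values, and their Pearson correlation across genes was 0.990 to 0.997.

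Replicate numbers recur in all groups of the labels, without saying what a number shares. Deviations from group means correlated across genes between libraries of the same number for no treatment and IFN-γ (0.220 to 0.460), CX3CL1 and IFN-γ (0.226 to 0.584), CX3CL1 and both agents (0.351 to 0.428) and IFN-γ and both agents (0.630 to 0.649), and these were taken as paired. Blocked values are given beside the results whose call they change in these comparisons, and for the others, apart from CD44 with CX3CL1, in the closing section. Other settings tried were quantile normalization, median-ratio scaling, a filter at a mean of 1 TPM or none, a pseudocount of 0.1, eBayes without trend, a fit of the compared libraries alone, the replicate block, and the removal of each library in turn.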

Additional observations from a re-analysis of the deposited data

How the results depend on the processing

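The 3 tested members kept direction and side of the threshold in 395 of 410 values under the alternatives, with 4 weaker, 10 stronger and 1 of opposite sign, the ICAM1 interaction, which was -0.19 with a pseudocount of 0.1 (adjusted p = 0.9999). The number of members called with CX3CL1 against no treatment went from 1 to 2 with a pseudocount of 0.1 (ICAM1 added), with median-ratio scaling (CD44 added, log2 fold change 0.47, adjusted p = 0.0220) and with the replicate block (CD44 added, adjusted p = 0.0296), and it was 1 to 2 when a library was left out. With IFN-γ against no treatment it went from 1 to 0 without the filter (VCAM1 adjusted p = 0.0764) and was 0 to 1 when a library was left out. With both agents against no treatment it went from 2 to 1 at a mean of at least 1 TPM, where ICAM1 was not tested. With both agents against IFN-γ and against CX3CL1 it went from 0 to 1 with the replicate block and was 0 to 1 when a library was left out. VCAM1 was called in 20 of 20 alternatives with CX3CL1 (log2 fold change 1.15 to 1.33) and with both agents (1.49 to 1.82) against no treatment and in 16 of 20 with IFN-γ, ICAM1 in 19 of 19 with both agents (0.78 to 2.60), and CD44 in 20 of 20 with IFN-γ against CX3CL1 (adjusted p up to 0.04998).

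Over all genes, the calls with CX3CL1 against no treatment were 232, or 455 with the block and 152 without no treatment replicate 3. With IFN-γ they were 932, or 1929 with the block, 530 without no treatment replicate 3 and 1499 without CX3CL1 replicate 2, and with both agents 1417, or 2464 with the block and 924 without replicate 3 of both agents. With both agents against IFN-γ they were 43, or 95 with the block, 28 without the filter, 20 with only the libraries compared and 16 without replicate 3 of both agents. With both agents against CX3CL1 they were 558, or 1369, 344 with only the libraries compared and 270 without replicate 3 of both agents, and with IFN-γ against CX3CL1 544, or 1601, 252 and 185 without IFN-γ replicate 3. The interaction went from 0 to 52 with the block, 1 with quantile normalization and up to 11 when a library was left out. The split of higher and lower calls was 702 and 230 with IFN-γ against no treatment, but 640 and 351 with median-ratio scaling and 556 and 536 with quantile normalization. It was 975 and 442 with both agents, but 797 and 888 with quantile normalization. With both agents against CX3CL1 it was 447 and 111, but 357 and 187, and 349 and 228, and with IFN-γ against CX3CL1 418 and 126, but 303 and 246, and 278 and 236. The median log2 fold change of all genes stayed within 0.1 of 0 under both scalings. The cause of these changes was not tested. Same-numbered libraries did not all deviate together for no treatment with CX3CL1 (correlations 0.005 to 0.387) or with both agents (0.032 to 0.447), where 4 of 6 libraries were most alike to their own number, so those numbers were not taken as pairs. The block changed no other call of a member. In the lists with IFN-γ against no treatment it raised the called genes from 0 to 2 of 4 receptors tested and 1 to 3 of 9 other adhesion molecules. Called sheddases went from 1 to 3 of 10, linkers from 2 to 3 of 16 and CD44 ligands from 0 to 3 of 8. Over all 11878 genes tested, the calls rose too, from 5.91% higher and 1.94% lower to 11.4% and 4.85% under the block. The counts of the lists are to be read against these shares. The call of MSN with IFN-γ held in 16, that of ITGB2 with both agents in 15, and those of CD47 in 20 of 20 alternatives. TPM give no depth, so ICAM1 and ICAM2 have no counting limit.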

Other observations

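Selectins and their ligands, which slow leukocytes before integrin ligands hold them, gave no called gene without a block in any of the 6 comparisons of groups (limma, 8 of 13 genes tested). The unadjusted p was under 0.05 for 2 of 8 with CX3CL1, 1 of 8 with IFN-γ and 3 of 8 with both agents against no treatment, beside 8.07%, 22% and 24.6% of all genes tested. CD34, a sialomucin of endothelium and blood stem cells, was abundant in CT26 cells, at 670 ± 25.3 TPM without treatment, 767 ± 48.3 with CX3CL1, 707 ± 21.3 with IFN-γ and 739 ± 27.3 with both agents (SD, n = 3). SELE, the selectin of activated endothelium, was at 29.4 ± 3.07, 37.7 ± 4.88, 30.0 ± 2.90 and 35.9 ± 4.10 TPM in the same order, and SELP at 14.8 ± 2.05, 17.3 ± 3.92, 18.0 ± 1.54 and 20.2 ± 2.90 TPM. These 3 genes are textbook markers of vessels, whereas the endothelial markers CLDN5, CDH5, KDR, TEK, TIE1, VWF and PECAM1 summed to at most 0.489 TPM in any library. With CX3CL1 against no treatment, SELE had a log2 fold change of 0.35 (interval 0.07 to 0.62, adjusted p = 0.351) and CD34 of 0.19 (interval 0.01 to 0.38, adjusted p = 0.573), neither of which was called. With the block, SELP was called higher (0.42, limma adjusted p = 0.0315) and ST3GAL6 lower (-0.63, adjusted p = 0.0067) with both agents against no treatment. There the block called 1578 of all 11878 genes tested higher and 886 lower. Same-numbered libraries of these groups were not taken as pairs.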
